A study of Homo sapiens with 16 samples.

Results

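The SLC25 genes encode the mitochondrial carriers, and 48 rows of the deposited count table bore an SLC25A symbol followed by a number, out of 33121 rows in all. The members were taken by symbol alone, without antisense, pseudogene or numbered-copy rows, and were grouped by the substrate that each carrier is known to move. Of these, 42 passed the filter on low counts and were among the 15569 genes tested. The remaining 6 were SLC25A2, SLC25A31 and SLC25A47, with at most 2 counts in any library, SLC25A52 with at most 7, SLC25A18 with at most 15 and SLC25A6 with at most 16.

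RNA was measured by poly-A sequencing in HAP1, a near-haploid human line derived from a chronic myeloid leukaemia, in 4 groups of 4 libraries. One group carried a deletion of SLC30A10, which encodes a manganese exporter of the cell surface, and had a control set of HAP1 cells without the deletion. Another group carried a deletion of a different gene, called the second knockout here, and had a control set of its own. In the labels 1 line identifier covers both control sets and 1 covers each deletion, all groups were grown in the same serum-containing medium, and no metal treatment is named. The labels do not say whether the libraries of a group came from separate cultures or how many clones they represent, so the p-values measure the spread between these libraries, which may be technical.

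Mitochondrial carriers are small proteins of the inner membrane that share a fold built of repeats. They exchange or import the solutes that link mitochondrial and cytosolic metabolism, among them ADP and ATP, phosphate, citric acid cycle intermediates, amino acids, nucleotides, cofactors, iron and glutathione. A few members have taken on other roles, such as SLC25A46, which sits in the outer membrane and acts in mitochondrial shape and fission. As bulk RNA was measured, fewer cells with a transcript and less transcript per cell cannot be told apart.

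Library totals lay between 16058856 and 16648151 counts, and 3 counts in a library corresponded to 0.181 to 0.187 CPM (the count relative to the effective library size). The transcript of the deleted gene SLC30A10 was near the floor in both of its groups, at 3 to 11 counts in knockout libraries and 6 to 9 in controls, so its level did not check the labels (exact permutation test, two-sided, p = 0.686, where the design allows no p below 0.0286). Of 8 myeloid and blood markers, MPO was at 0 in all libraries and the summed level of the list was 0.0608 to 0.671 CPM, while 4 epithelial markers summed to 47.8 to 55.5 CPM in the SLC30A10 control set, 56.7 to 64.1 CPM in the SLC30A10 knockout, 46.6 to 51.5 CPM in the second control set and 37.0 to 40.4 CPM in the second knockout. Most of the epithelial sum was KRT18, and these markers did not move together. In the SLC30A10 knockout mean EPCAM fell from 1.22 to 0.263 CPM, while KRT8 rose from 7.54 to 9.68 and KRT18 from 42.7 to 51.2 CPM. In the second knockout KRT8 fell from 6.82 to 2.68 and KRT18 from 40.9 to 35.1 CPM, with EPCAM at 0.813 against 0.607 CPM. CDH1 had at most 5 counts in any library. The part of these markers in the differences of the carriers between groups was not tested. The 4 fibroblast markers summed to 29.7 to 42.7 CPM over all libraries, nearly all of it COL1A1.

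Carrier transcripts spanned a wide range of levels. Among the member rows, the most abundant per kb of exon was SLC25A5, an ADP/ATP carrier, at 371 CPM per kb over all libraries. It was followed by the glutathione carrier SLC25A39 at 152, the citrate carrier SLC25A1 at 118 and the phosphate carrier SLC25A3 at 69.2 CPM per kb. Levels per kb depend on the length used, the union of all listed exons, which can exceed the transcript present. That length was 6856 bases for SLC25A3 and 1274 for SLC25A5, whose CPM over all libraries were alike at 475 and 473. Nearly all SLC25A6 reads lay in a numbered second row, outside the rule for members. With both rows summed, its group means were 197 to 245 CPM per kb, above those of SLC25A39. The oxoglutarate carrier SLC25A11 and the ATP-Mg/phosphate carrier SLC25A23 were level with each other at 45.1 CPM per kb. Across the 42 tested members the highest and the lowest level per kb differed 1406-fold. The 5 member rows with the most counts (SLC25A3, SLC25A5, SLC25A39, SLC25A36 and SLC25A1) held 53.4% of the summed CPM of the member rows. The second SLC25A6 row, with group means of 406 to 505 CPM, is left out of that ranking and sum. The sum over member rows was 3015 ± 52.2 CPM (SD, n = 4) in the SLC30A10 control set and 3194 ± 35.7 in the SLC30A10 knockout. It was 3050 ± 34.5 in the second control set and 2895 ± 27 in the second knockout. The summed level was thus above every control library in the SLC30A10 knockout, where the lowest library held 3142 CPM against 3089 in the highest control. It was below every control library in the second knockout, where the highest held 2931 CPM against 2967 in the lowest control. With the second SLC25A6 row added, the lowest SLC30A10 knockout library held 3633 CPM against 3559 in the highest control. The highest second knockout library then held 3340 CPM against 3394 in the lowest control. Most of the summed rise in the SLC30A10 knockout matched the change of SLC25A5 alone, from a mean of 435 to 603 CPM. Other members rose and fell beside it, so the sum does not describe the family as a whole.

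**Figure D1:**
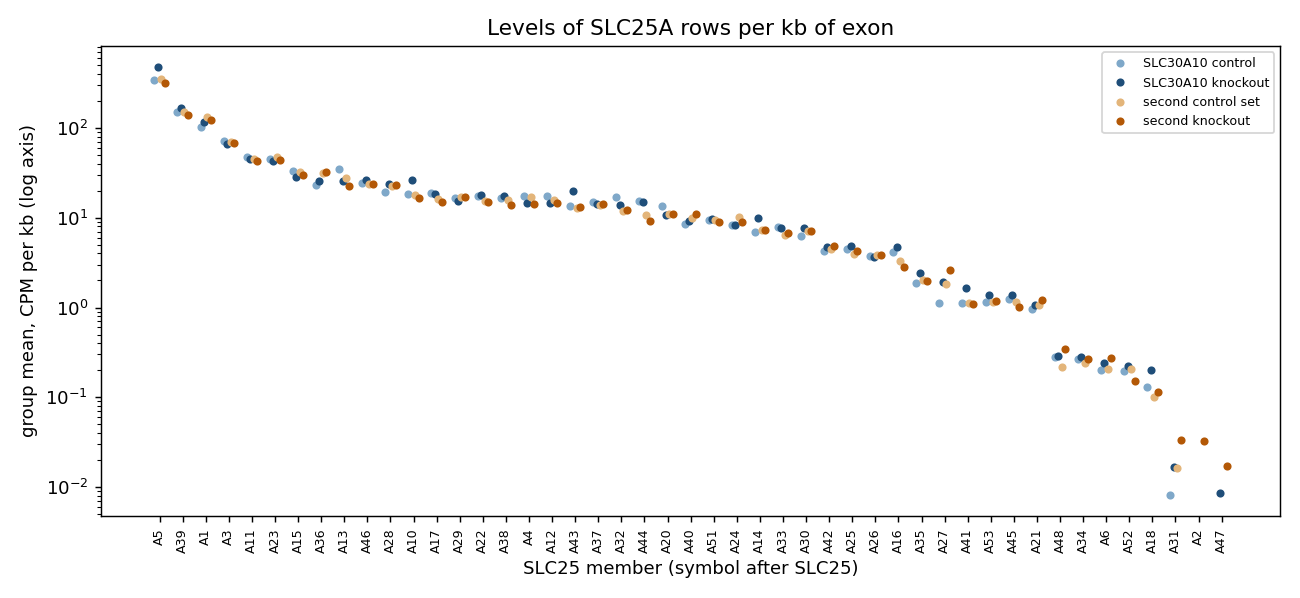
Mean level of SLC25A rows per kb of exon (log axis, CPM per kb) in the 4 groups, with members ordered by their mean over all libraries and group means of 0 left out. SLC25A5 lies highest at 371 CPM per kb over all libraries, and SLC25A2 and SLC25A47 have points only in groups with any count. SLC25A6 is drawn from its member row alone, without the numbered second row that holds nearly all its reads.

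In the SLC30A10 knockout, 21 of 42 tested members (50%) passed the threshold of an adjusted p under 0.05, against 41.4% of all tested genes (edgeR quasi-likelihood test with Benjamini-Hochberg adjustment over all genes). Of these, 14 rose and 7 fell, where 21.2% of all genes rose and 20.2% fell. The median log2 difference was 0.0477 over the members and -0.00479 over all genes, and the median size of the difference was 0.15 over the members and 0.16 over all genes. Of the same 42 members 10 (23.8%) passed in the second knockout, against 13.7% of all tested genes, with 2 higher and 8 lower, where 6.67% of all genes were higher and 7.03% lower. The libraries of the groups did not overlap for 19 of 42 members in the SLC30A10 knockout (38.3% of all genes) and for 9 of 42 in the second (16.3%). The count in the second knockout rested on single libraries: it was 5 without the second control library 3, 4 without the second control library 4, 6 without the second knockout library 1 and 4 without the second knockout library 2. Changes were small in both knockouts, and a fold of at least 1.5 was reached by SLC25A27 alone in the SLC30A10 knockout and by SLC25A48 alone in the second knockout, against 10.4% and 4.27% of all genes.

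**Figure D2:**
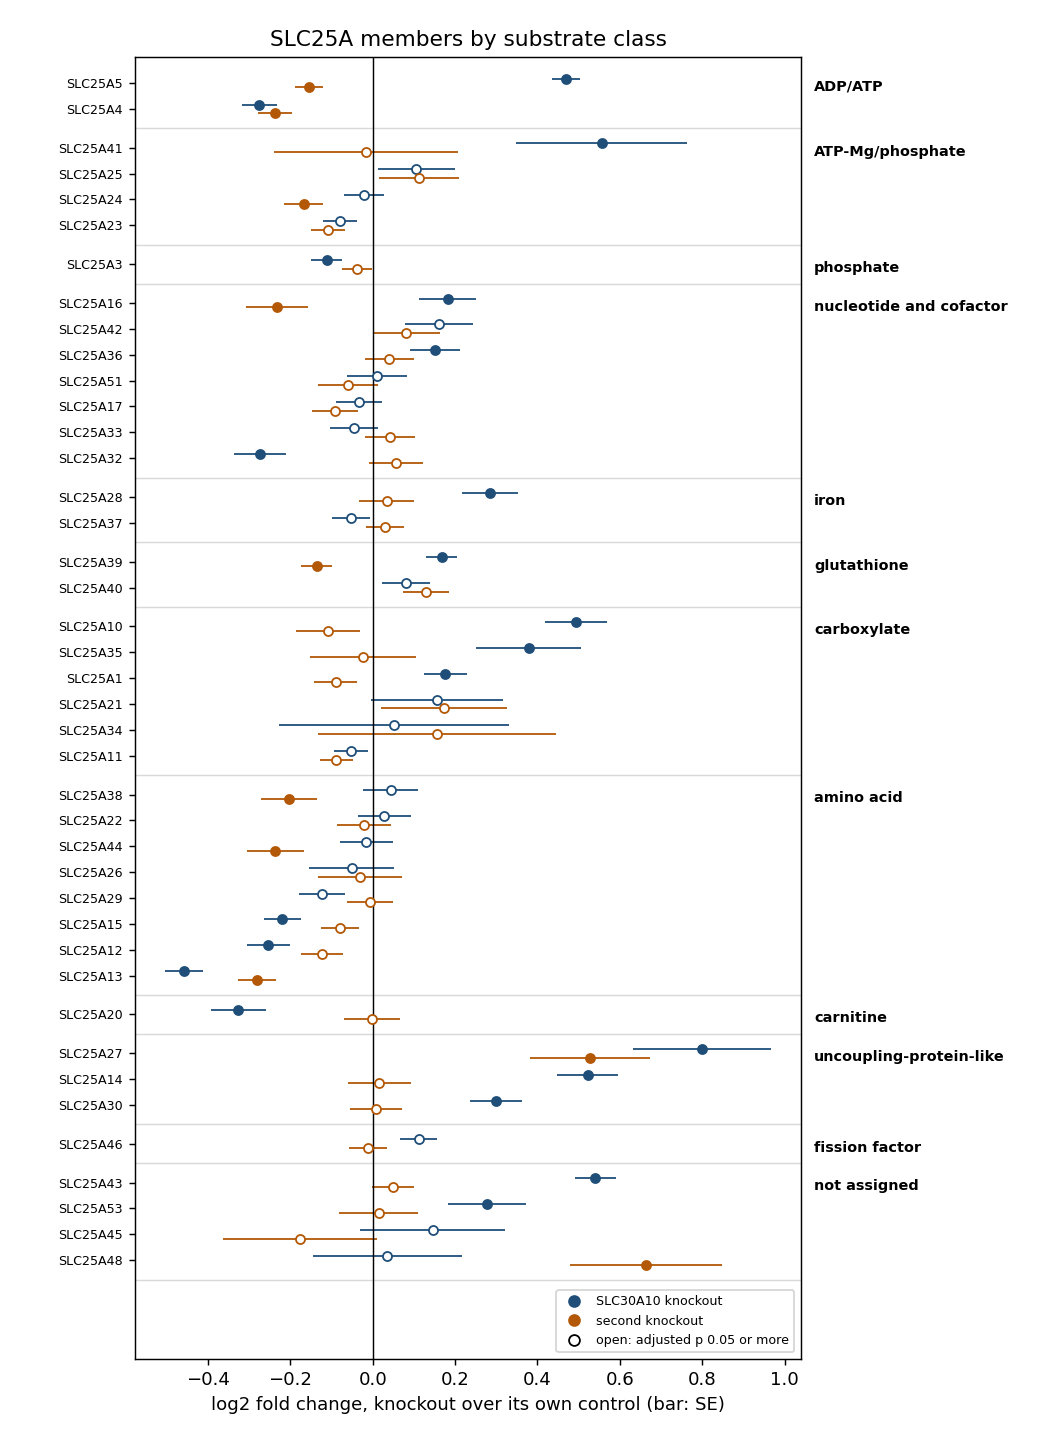
Log2 fold change of tested members over its own control set (x axis, bar: standard error) in the SLC30A10 knockout and the second knockout, by substrate class. Filled points passed an adjusted p of 0.05. SLC25A5 lies at 0.47 in one knockout and at -0.15 in the other, while SLC25A4 and SLC25A13 lie below 0 in both.

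The ADP/ATP carriers bring ADP into the matrix and send ATP out, and humans have 4 of them. SLC25A5 is the form of dividing cells, SLC25A4 that of heart and skeletal muscle, SLC25A6 is widely expressed and SLC25A31 belongs mainly to the testis. SLC25A5 lies at chrX:119468444-119471396 and SLC25A43, a carrier whose substrate is not assigned here, lies just before it at chrX:119399336-119454478 in RefSeq on GRCh38.p14. Of the tested genes with a position, only SLC25A5-AS1 lies between them. The sequences of the 250 bases before the RefSeq start sites of SLC25A4, SLC25A5 and SLC25A43 are shown because the first 2 are paralogs whose levels moved apart in the SLC30A10 knockout, and the last 2 are neighbours that rose together. Capitals mark matches, on either strand, to CCAAT (the CCAAT box), to GGGCGG (the GC box), to the NRF1 core (a GCGC, any 2 bases, then another GCGC) and to CCGGAAG (an ETS core).
SLC25A4 (chr4:185143016-185143265, plus strand): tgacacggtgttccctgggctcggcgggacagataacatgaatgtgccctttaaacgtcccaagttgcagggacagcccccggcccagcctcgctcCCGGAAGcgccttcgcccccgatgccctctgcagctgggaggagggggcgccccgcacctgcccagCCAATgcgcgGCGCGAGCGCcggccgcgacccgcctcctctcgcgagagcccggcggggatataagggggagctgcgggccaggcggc
SLC25A5 (chrX:119468194-119468443, plus strand): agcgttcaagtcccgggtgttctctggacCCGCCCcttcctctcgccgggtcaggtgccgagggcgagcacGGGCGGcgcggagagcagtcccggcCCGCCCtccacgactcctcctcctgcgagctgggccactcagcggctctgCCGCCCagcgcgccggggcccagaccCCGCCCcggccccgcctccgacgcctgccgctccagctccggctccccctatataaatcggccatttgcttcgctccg
SLC25A43 (chrX:119399086-119399335, plus strand): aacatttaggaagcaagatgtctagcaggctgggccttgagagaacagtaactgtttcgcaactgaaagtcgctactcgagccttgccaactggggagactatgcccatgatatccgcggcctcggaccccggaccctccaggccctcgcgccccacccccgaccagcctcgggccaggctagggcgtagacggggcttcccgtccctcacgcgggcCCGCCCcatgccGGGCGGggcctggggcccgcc
The SLC25A4 window held 1 CCAAT box, 1 NRF1 core and 1 ETS core and no GC box. Those of SLC25A5 and SLC25A43 held 5 and 2 GC boxes and none of the other motifs. Of 40 members with a RefSeq promoter, 28 (70%) held a GC box, against 42.3% of 27305 promoters, and 18 (45%) held a CCAAT box, against 33%. The NRF1 core was found in 7 members (17.5%, against 7.58%) and the ETS core in 8 (20%, against 8.82%), while TGATGNAA, the core of the amino acid response element, was found in 1 member, SLC25A11 (2.5%, against 3.19%). None of the matches marked in the 3 windows overlap, and a match describes letters only.

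SLC25A5 had 420, 432, 454 and 436 CPM in the 4 SLC30A10 control libraries and 599, 599, 610 and 604 CPM in the knockout libraries. Second control libraries had 456, 452, 440 and 451 CPM, and the second knockout 408, 387, 408 and 413 CPM. All SLC30A10 knockout libraries thus lay above all 8 control libraries, and all second knockout libraries below them. The log2 change was 0.47 ± 0.03 (SE, n = 4 per group) in the SLC30A10 knockout (edgeR quasi-likelihood test, adjusted p = 9.43e-12) and -0.15 ± 0.03 in the second knockout (adjusted p = 0.00179 by the same test). The difference between these effects was 0.62 ± 0.05 (adjusted p = 5.79e-11, edgeR quasi-likelihood test), one of 13 members whose effects differed (31%, against 31.3% of all tested genes). In GENCODE v29, 11.1% of the windows of 100 bases in its longest coding transcript also occur in SLC25A5-AS1, which did not pass the test in either knockout.

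SLC25A4 went down in both knockouts. It had 75.8, 75.3, 83.0 and 77.4 CPM in the SLC30A10 control libraries against 65.2, 65.1, 64.7 and 62.3 CPM in the knockout, and 74.7, 74.8, 73.4 and 76.5 CPM in the second control libraries against 65.4, 63.5, 63.4 and 61.7 CPM in the second knockout. No knockout library of either kind reached the lowest of the 8 control libraries. SLC25A4 fell by 0.28 ± 0.04 on the log2 scale in the SLC30A10 knockout (adjusted p = 6.82e-06, edgeR) and it fell by 0.24 ± 0.04 in the second knockout (adjusted p = 0.000182, edgeR). The difference between these effects, -0.04 ± 0.06, did not pass (adjusted p = 0.664, edgeR). Its longest coding transcript shared no window of 100 bases with another gene.

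The SLC25A6 row held 1 to 16 counts, while a second, numbered row of the same symbol, which is outside the rule for members, held 6505 to 8531 counts per library. The deposited table does not say what separates the rows, and RefSeq places the gene in chrX:1386152-1392113, in the region that X shares with Y. Means of the second row were 450.2 ± 17.4 CPM (SD, n = 4) in SLC30A10 controls, 505 ± 13.4 in the knockout, 406 ± 14.6 in the second control set and 409.7 ± 14.6 in the second knockout. It was higher by 0.17 ± 0.04 log2 in the SLC30A10 knockout (adjusted p = 0.000875, edgeR) and differed by 0.01 ± 0.04 in the second knockout (adjusted p = 0.890, edgeR). Between the control sets it differed too, by 0.15 ± 0.04, with the SLC30A10 set higher (adjusted p = 0.00297, edgeR). SLC25A31 had at most 2 counts in any library.

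With both SLC25A6 rows summed, the makeup of the ADP/ATP carriers per kb of exon was close to constant within a group. The size of each share depends on the exon lengths used, 4440 bases for SLC25A4, 1274 for SLC25A5 and 2062 for SLC25A6. SLC25A5 made up 59.1% ± 0.191 (SD, n = 4) of their summed level in the SLC30A10 control set and 64.6% ± 0.402 in the SLC30A10 knockout, against 62.2% ± 0.521 in the second control set and 59.8% ± 0.948 in the second knockout. SLC25A6 held 37.8% ± 0.222, 33.4% ± 0.428, 34.8% ± 0.587 and 37.5% ± 0.893 in the same order, and SLC25A4 held 3.04% ± 0.0656, 1.98% ± 0.0541, 2.97% ± 0.0659 and 2.70% ± 0.0749. The share of SLC25A5 was therefore higher than in its control set in one knockout and lower in the other, the control sets differed as well, and SLC25A4 was the least abundant of the 3 expressed forms in all groups. Their summed level was 578 CPM per kb in the SLC30A10 control set, 733 in the knockout, 567 in the second control set and 530.4 in the second knockout.

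**Figure D3:**
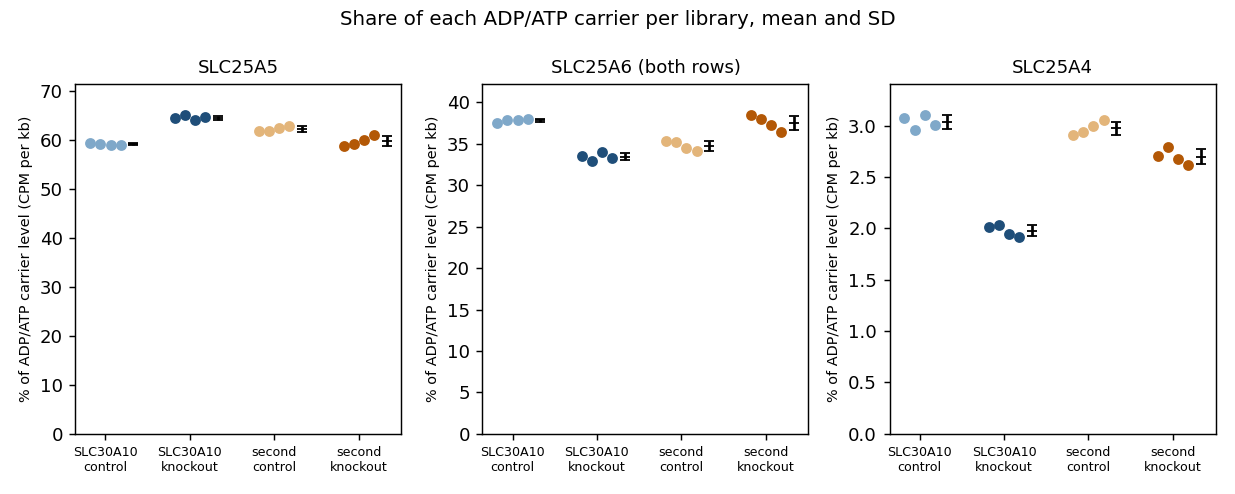
Share of SLC25A5, SLC25A6 (both rows summed) and SLC25A4 in the summed ADP/ATP carrier level (%, from CPM per kb) in each library, with mean and SD (n = 4) beside each group; each y axis starts at 0. The SLC30A10 knockout has the highest SLC25A5 share, 64.6%, and the lowest SLC25A4 share, 1.98%.

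The ATP-Mg/phosphate carriers, which set the adenine nucleotide pool of the matrix, are SLC25A23, SLC25A24, SLC25A25 and SLC25A41. SLC25A23 was the most abundant of them, with group means between 152 and 168 CPM, and did not pass in either knockout (log2 -0.08 and -0.11). SLC25A24 had 66.4, 65.8, 65.1 and 69.1 CPM in the second control libraries and 56.9, 58.6, 59.5 and 62.1 CPM in the second knockout, which did not overlap. SLC25A24 fell by 0.17 ± 0.05 there (adjusted p = 0.0154, edgeR), but SLC30A10 controls, at 53.2 to 56.5 CPM, were lower than both (by 0.29 log2 against the second control set). The call was lost without the second control library 4, or the second knockout library 1 or 2 (adjusted p 0.0548 to 0.0697, edgeR), and with both control sets pooled (log2 -0.03, adjusted p = 0.670). SLC25A41, at 1.52 to 2.98 CPM in the SLC30A10 groups, passed in the SLC30A10 knockout at 0.56 ± 0.21 with overlapping groups (adjusted p = 0.0329, edgeR), and was lost without any of the knockout libraries 1, 3 and 4 or the control libraries 1, 3 and 4 (adjusted p 0.0516 to 0.111, edgeR).

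SLC25A3, which imports the phosphate used to make ATP, was measured at 495 ± 16.6 CPM in the SLC30A10 control set and 458 ± 8.30 in the knockout. It fell by 0.11 ± 0.04 (adjusted p = 0.0162, edgeR), without overlap between the groups but not without the SLC30A10 control library 3 (log2 -0.09, adjusted p = 0.0569, edgeR). Its difference in the second knockout was -0.04 (adjusted p = 0.558, edgeR). The tested carriers of adenine nucleotides and phosphate thus showed rises and falls of under 0.6 log2 side by side, with SLC25A5 and SLC25A4 the members of this group whose calls held in both knockouts in every fit that left out 1 library.

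Of 8 tested carriers of other nucleotides, vitamins and cofactors, 3 (37.5%) passed in the SLC30A10 knockout and 1 (12.5%) passed in the other, near the 41.4% and 13.7% of all tested genes. SLC25A32, which carries folate and FAD, had 48.6, 46.8, 55.1 and 44.9 CPM in the SLC30A10 control libraries and 42.6, 38.8, 38.9 and 41.4 CPM in the knockout. Second control libraries had 33.3, 31.6, 35.1 and 36.3 CPM and the second knockout 35.6, 38.1, 33 and 35.2 CPM. SLC25A32 fell by 0.27 ± 0.06 in the SLC30A10 knockout (adjusted p = 0.000911, edgeR), yet the knockout libraries lay above all second control libraries, and with both control sets pooled the difference was -0.01 (adjusted p = 0.856, edgeR). Of its longest coding transcript in GENCODE v29, 95.6% of windows occur, on either strand, in transcripts listed under AC012213.5 or DCAF13. Its count may therefore depend on how shared reads were assigned. Whether the authors' annotation held AC012213.5, and whether strand was used, is not given in the sources used here.

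SLC25A16, a carrier linked to coenzyme A, moved in opposite directions in the knockouts. It had 28.8, 27.9, 28 and 23.4 CPM in the SLC30A10 control libraries against 31.6, 29.9, 29.1 and 32 CPM in the knockout, and 19.1, 22.1, 23 and 22.2 CPM in the second control libraries against 17.6, 17.8, 18 and 20.2 CPM in the second knockout. The second pair of groups overlapped and the first did not. Its changes were 0.18 ± 0.07 (adjusted p = 0.0363, edgeR) and -0.23 ± 0.08 (adjusted p = 0.0383, edgeR), with a difference between them of 0.41 ± 0.10 (adjusted p = 0.0026, edgeR). The first call was lost without the SLC30A10 knockout library 1 or 4 or its control library 2 or 4 (adjusted p 0.0519 to 0.192, edgeR; log2 0.11 without control library 4), and the second without the second control library 2, 3 or 4 or the second knockout library 1, 2 or 3 (adjusted p 0.0777 to 0.137, edgeR), whereas the difference between the effects held in each of these fits. Pooled control sets gave 0.34 and -0.39.

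SLC25A36, which exchanges pyrimidine nucleotides, differed more between the control sets than in either knockout. SLC30A10 controls held 178 ± 17.2 CPM (SD, n = 4) and the knockout 197 ± 9.65, with overlap, against 237 ± 17.7 in the second control set and 244 ± 16.5 in the second knockout. The change of 0.15 ± 0.06 in the SLC30A10 knockout had an adjusted p of 0.0458 by edgeR, turned to -0.06 with both control sets pooled (adjusted p = 0.407), and was lost without the knockout library 1, 2 or 3 or the control library 2 or 3 (adjusted p 0.0588 to 0.210, edgeR; log2 0.09 without control library 3). The peroxisomal carrier SLC25A17, the pyrimidine nucleotide carrier SLC25A33, the coenzyme A carrier SLC25A42 and the NAD carrier SLC25A51 passed in neither knockout, with log2 values between -0.09 and 0.16. SLC25A51 shares 13.1% of its windows with other genes, among them its near copy SLC25A52, which had 1 to 7 counts.

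Both mitoferrins, which bring iron into the matrix for heme and iron-sulfur cluster synthesis, were expressed, and they behaved differently in the SLC30A10 knockout. SLC25A28 (mitoferrin 2) had 28.3, 28.5, 26 and 29.4 CPM in the control libraries and 35.4, 33.1, 33.7 and 34.6 CPM in the knockout. Every knockout library lay above every one of its own controls, but the second control set, at 33.3, 30.9, 35.4 and 32.1 CPM, reached the same levels. SLC25A28 rose by 0.29 ± 0.07 (adjusted p = 0.0013, edgeR), and by 0.17 with both control sets pooled. Its difference in the second knockout was 0.03 (adjusted p = 0.803, edgeR), and the difference between the effects, 0.25 ± 0.10 (adjusted p = 0.0450, edgeR), was lost in 11 of the 16 fits that each left out 1 library (adjusted p up to 0.122). SLC25A37 (mitoferrin 1), the form of developing red cells, had 71.8 ± 0.910 CPM in the SLC30A10 control set and 69.2 ± 3.00 in the knockout, and passed in neither knockout (log2 -0.05 and 0.03).

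The glutathione carriers SLC25A39 and SLC25A40 supply the matrix with the thiol that protects it from oxidants. SLC25A39 had 239, 244, 248 and 248 CPM in the SLC30A10 control libraries and 280.4, 264, 278 and 276 CPM in the knockout, and all 4 lay above all 8 control libraries. The second control libraries had 243, 253, 259 and 247 CPM and the second knockout 220.4, 221, 246 and 224 CPM, of which the third lay within its control set. SLC25A39 rose by 0.17 ± 0.04 in the SLC30A10 knockout (adjusted p = 0.000972, edgeR) and fell by 0.14 ± 0.04 in the second knockout (adjusted p = 0.0169, edgeR), and these effects differed by 0.30 ± 0.05 (adjusted p = 9.45e-05, edgeR). The fall was lost without the second control library 3 or the second knockout library 1, 2 or 4 (adjusted p 0.0540 to 0.0860, edgeR). SLC25A40 was measured at 34.8 ± 2.72 and 36.7 ± 0.202 CPM in the SLC30A10 pair of groups and at 40.5 ± 1.19 and 44.3 ± 2.96 CPM in the second pair, and did not pass in either (adjusted p = 0.288 and 0.142, edgeR).

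Of 6 tested carriers of di- and tricarboxylates and keto acids, 3 (50%) rose in the SLC30A10 knockout, where 21.2% of all tested genes rose, and none passed in the second knockout by edgeR, where 13.7% of all genes did. SLC25A10, which exchanges dicarboxylates such as malate and succinate for phosphate, had 36.7, 36.5, 42.1 and 34.8 CPM in the SLC30A10 control libraries and 51.5, 49.0, 56.2 and 54.4 CPM in the knockout. In the second pair, control libraries had 33.8, 35.5, 38.3 and 37.8 CPM and the second knockout 28.5, 30.9, 38.6 and 36.8 CPM. All SLC30A10 knockout libraries lay above all other libraries. SLC25A10 rose by 0.49 ± 0.08 (adjusted p = 7.25e-06, edgeR), and the effects in the 2 knockouts differed by 0.60 ± 0.11 (adjusted p = 0.000106, edgeR). In GENCODE v29, 55.5% of the windows of its longest coding transcript also belong to the gene model AC139530.2, and whether the authors' annotation held that model is not given in the sources used here.

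SLC25A1, which exports citrate for fatty acid synthesis, had 175, 190.2, 180 and 188 CPM in the SLC30A10 control libraries and 214, 192, 216 and 206 CPM in the knockout. The second control libraries, at 244, 255, 212 and 221 CPM, lay higher, and the second knockout had 211, 216, 238 and 212 CPM. SLC25A1 rose by 0.18 ± 0.05 in the SLC30A10 knockout (adjusted p = 0.00872, edgeR). The SLC30A10 control set was also lower than the second control set, by 0.35 (adjusted p = 1.2e-05, edgeR). With both control sets pooled the change in the SLC30A10 knockout was 0.00 (adjusted p = 0.977, edgeR). SLC25A35, listed here with the keto acid carriers, was at 7.23 ± 0.524 CPM in the control set and 9.41 ± 1.42 in the knockout. It rose by 0.38 ± 0.13 (adjusted p = 0.0188, edgeR), a call lost without the SLC30A10 knockout library 4 or control library 2 (adjusted p = 0.108 and 0.0671, edgeR). In GENCODE v29, 36% of the windows of 100 bases in its longest coding transcript also occur in RANGRF. SLC25A11, SLC25A21 and SLC25A34 passed in neither knockout, with SLC25A11, the oxoglutarate carrier, between 81.1 and 89.1 CPM in all 4 group means.

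Of 8 tested amino acid carriers, 3 (37.5%) passed in the SLC30A10 knockout, near the 41.4% of all tested genes, and 3 in the other, where 13.7% of all genes passed. All of these calls were falls (20.2% and 7.03% of all genes fell), and SLC25A13 was the member of both counts. SLC25A13 (citrin) and SLC25A12 (aralar) exchange aspartate for glutamate and, as part of the malate-aspartate shuttle, bring reducing equivalents into the matrix. SLC25A13 had 108, 107, 121 and 112 CPM in the SLC30A10 control libraries and 78.8, 80.7, 82.3 and 83.6 CPM in the knockout. In the second pair, control libraries had 89.6, 86.4, 87.0 and 91.1 CPM and the second knockout 78.4, 71.1, 71.5 and 70.5 CPM. Libraries of both knockouts lay below all 8 control libraries, and the SLC30A10 control set lay above the second control set. SLC25A13 fell by 0.46 ± 0.05 in the SLC30A10 knockout (adjusted p = 4.89e-09, edgeR), and by 0.29 with both control sets pooled. It fell by 0.28 ± 0.05 in the second knockout (adjusted p = 5.79e-05, edgeR), and by 0.45 with the control sets pooled. The control sets themselves differed by 0.34 (adjusted p = 2.37e-06, edgeR), and the difference between the knockout effects, -0.18 ± 0.06 (adjusted p = 0.0376, edgeR), was lost in 6 of 16 fits that each left out 1 library (adjusted p up to 0.0754).

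SLC25A12 had 51.6, 51.8, 52.8 and 52 CPM in the SLC30A10 control libraries and 46.5, 42.6, 41.5 and 44.1 CPM in the knockout. The groups did not overlap, and SLC25A12 fell by 0.25 ± 0.05 (adjusted p = 0.000251, edgeR). The second control set, at 47.2 ± 3.12 CPM, was lower than the SLC30A10 control set by 0.14 ± 0.05 log2 (adjusted p = 0.0272, edgeR). The SLC30A10 knockout libraries did not all lie outside the range of all 8 control libraries. In the second knockout SLC25A12 differed by -0.12 (adjusted p = 0.122, edgeR), and the effects in the 2 knockouts were not shown to differ (adjusted p = 0.183, edgeR). SLC25A15, the ornithine carrier of the urea cycle, fell by 0.22 ± 0.05 in the SLC30A10 knockout (adjusted p = 0.0003, edgeR), from 52.8 ± 1.32 to 45.4 ± 1.52 CPM, and its knockout libraries lay below all 8 control libraries.

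The other amino acid carriers that fell in the second knockout were SLC25A44, a carrier of branched-chain amino acids, and SLC25A38, which imports glycine for heme synthesis. SLC25A44 had 34.9, 39.3, 42.4 and 42.2 CPM in the second control libraries and 34.9, 33.9, 33.3 and 32.8 CPM in the knockout, where the highest knockout library lay just under the lowest control. The SLC30A10 control set had 52.9, 55.3, 64.5 and 51.2 CPM and its knockout 58.7, 53.1, 54.0 and 55.5 CPM, so that the 2 pairs of groups stood further apart than a knockout from its controls. SLC25A44 fell by 0.24 ± 0.07 in the second knockout (adjusted p = 0.0206, edgeR), and by 0.48 with the control sets pooled. That call was lost without the second control library 3 or 4 or the second knockout library 2 or 4 (adjusted p 0.0520 to 0.0936, edgeR).

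SLC25A38 fell by 0.20 ± 0.07 in the second knockout (adjusted p = 0.0451, edgeR), from 38.7 ± 2.53 to 33.6 ± 1.41 CPM, and the call was lost without the second control library 1, 3 or 4 or the second knockout library 1, 2 or 3 (adjusted p 0.0682 to 0.195, edgeR). Its effects in the 2 knockouts differed by 0.25 ± 0.10 (adjusted p = 0.0488, edgeR), which was lost in 11 of 16 such fits (adjusted p up to 0.133). The glutamate carrier SLC25A22, the S-adenosylmethionine carrier SLC25A26 and the basic amino acid carrier SLC25A29 passed in neither knockout, with log2 values between -0.12 and 0.03. SLC25A2 and SLC25A18, the other ornithine and glutamate carriers of this list, were too low to be tested.

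SLC25A20 brings acylcarnitines into the matrix for fatty acid oxidation. It had 24.9, 24.1, 28.4 and 24 CPM in the SLC30A10 control libraries and 20.8, 20.01, 19.3 and 20.8 CPM in the knockout, while the second control libraries had 21.3, 20.2, 21.9 and 19.2 CPM and the second knockout 20.3, 19.99, 22.1 and 20.1 CPM. The SLC30A10 control set was the group that stood apart, above the other 3. SLC25A20 fell by 0.33 ± 0.07 in the SLC30A10 knockout (adjusted p = 0.000276, edgeR) and by 0.18 with both control sets pooled, and the effects in the 2 knockouts differed by -0.32 ± 0.10 (adjusted p = 0.00997, edgeR).

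The 3 uncoupling-protein-like carriers, SLC25A14, SLC25A27 and SLC25A30, all rose in the SLC30A10 knockout, where 21.2% of all tested genes rose. SLC25A14 lies on the X chromosome, where 69.5% of tested genes rose. For SLC25A27 and SLC25A30 the SLC30A10 control set was lower than the second control set. SLC25A27 (also called UCP4) showed the largest fold of all tested members in the SLC30A10 knockout. It had 2.92, 4.49, 2.13 and 3.72 CPM in the SLC30A10 control libraries and 5.22, 6.15, 6.32 and 5.42 CPM in the knockout, without overlap. The second control libraries had 6.0, 6.06, 4.70 and 4.86 CPM and the second knockout 8.48, 8.65, 8.05 and 5.99 CPM, with overlap. SLC25A27 rose by 0.80 ± 0.17 in the SLC30A10 knockout (adjusted p = 0.000371, edgeR) and by 0.53 ± 0.15 in the second knockout (adjusted p = 0.0145, edgeR), and these effects were not shown to differ (0.27 ± 0.22, adjusted p = 0.383, edgeR). Its control sets differed by as much, with the SLC30A10 set lower by 0.70 ± 0.17 (adjusted p = 0.00178, edgeR). Pooling them gave 0.45 in the SLC30A10 knockout and 0.88 for the other. The call in the second knockout was lost without the second control library 3 or 4 or the second knockout library 2 (adjusted p 0.0534 to 0.0562, edgeR).

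SLC25A14 (also called UCP5), on the X chromosome, had 13.2, 11.3, 13.2 and 12.3 CPM in the SLC30A10 control libraries and 17.5, 18, 17.4 and 18.8 CPM in the knockout, all above the 8 control libraries. It rose by 0.52 ± 0.07 (adjusted p = 2.29e-06, edgeR), differed by 0.02 in the second knockout (adjusted p = 0.927, edgeR), and these effects differed by 0.51 ± 0.11 (adjusted p = 0.000566, edgeR). SLC25A30 rose by 0.30 ± 0.06 in the SLC30A10 knockout (adjusted p = 0.000415, edgeR), from 23.3 ± 1.33 to 28.7 ± 1.44 CPM, and differed by 0.01 in the second knockout (adjusted p = 0.962, edgeR), with a difference between the effects of 0.29 ± 0.09 (adjusted p = 0.0134, edgeR). The second control set, at 26.4 ± 1.27 CPM, lay above the SLC30A10 control set by 0.18 ± 0.06 log2 (adjusted p = 0.0263, edgeR).

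Among the members whose substrate is not assigned here, SLC25A43 had 38.2, 39, 37.7 and 36 CPM in the SLC30A10 control libraries and 52.3, 56.4, 53.6 and 57.2 CPM in the knockout. The second control libraries had 34.9, 33.9, 36.4 and 36.3 CPM and the second knockout 36, 38.3, 36.8 and 35.3 CPM. The SLC30A10 knockout alone stood apart from the other 3 groups. SLC25A43 rose by 0.54 ± 0.05 (adjusted p = 1.37e-09, edgeR), and its effects in the knockouts differed by 0.49 ± 0.07 (adjusted p = 5.71e-06, edgeR). SLC25A53 rose by 0.28 ± 0.09 in the SLC30A10 knockout (adjusted p = 0.0192, edgeR), from 7.15 ± 0.423 to 8.68 ± 0.708 CPM, a call lost without the knockout library 4 or control library 3 (adjusted p = 0.0828 and 0.0530).

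SLC25A48 was the one tested member past a 1.5-fold change in the second knockout. It had 1.71, 1.82, 1.57 and 1.46 CPM in the second control libraries and 2.18, 2.70, 2.91 and 2.60 CPM in the knockout, without overlap. In the SLC30A10 control set it had 2.92, 2.19, 1.89 and 1.52 CPM and in that knockout 2.18, 1.86, 2.27 and 2.43 CPM, a range that covered most of the others. SLC25A48 rose by 0.66 ± 0.18 in the second knockout (adjusted p = 0.0148, edgeR), a call lost without the second control library 4 (0.61, adjusted p = 0.0523). The difference from its effect in the SLC30A10 knockout, -0.63 ± 0.26, did not pass (adjusted p = 0.0666, edgeR). SLC25A45 and the outer membrane factor SLC25A46 passed in neither knockout. SLC25A46 had 80.0 ± 4.19 CPM in the SLC30A10 control set and 86.5 ± 2.28 in the knockout (log2 0.11, adjusted p = 0.0508, edgeR).

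**Figure D4:**
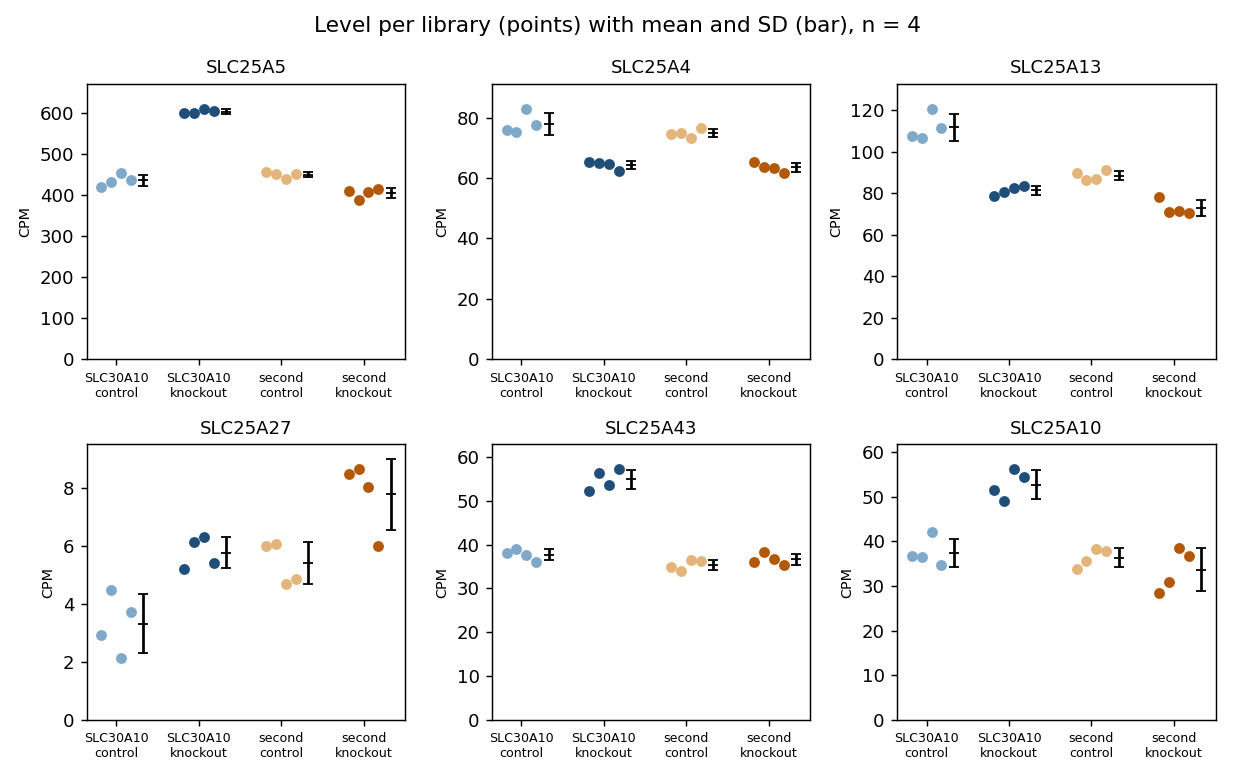
Level of 6 members in each of the 16 libraries (CPM, y axes from 0), with mean and SD (n = 4) beside each group. SLC25A5, SLC25A43 and SLC25A10 are highest in the SLC30A10 knockout, SLC25A4 and SLC25A13 are lower in both knockouts than in all 8 control libraries, and the groups of SLC25A27 overlap in the second pair.

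The genome positions of the members were set beside these changes. All 4 tested members on the X chromosome (SLC25A5, SLC25A14, SLC25A43 and SLC25A53) rose in the SLC30A10 knockout, and of 498 tested genes placed on X, 346 (69.5%) rose and 28 fell, with a median log2 difference of 0.36. The median over the 20 nearest tested neighbours, 10 on each side in RefSeq order, was 0.30 around SLC25A5, 0.30 around SLC25A43, 0.36 around SLC25A14 and 0.42 around SLC25A53, and around each of them 14 of the 20 neighbours rose. SLC25A5, SLC25A43 and SLC25A14 exceeded their neighbours' median and SLC25A53 did not. Around the members that rose on other chromosomes the neighbours' medians lay near 0, at 0.01 for SLC25A27 and -0.05 for SLC25A10, while around SLC25A13 on chromosome 7 it was -0.13 and 10 of 20 neighbours fell. The part of chromosome position in these members' changes was not tested. In the second knockout the neighbours of SLC25A5 had a median of -0.02 and those of SLC25A13 one of -0.01.

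**Figure D5:**
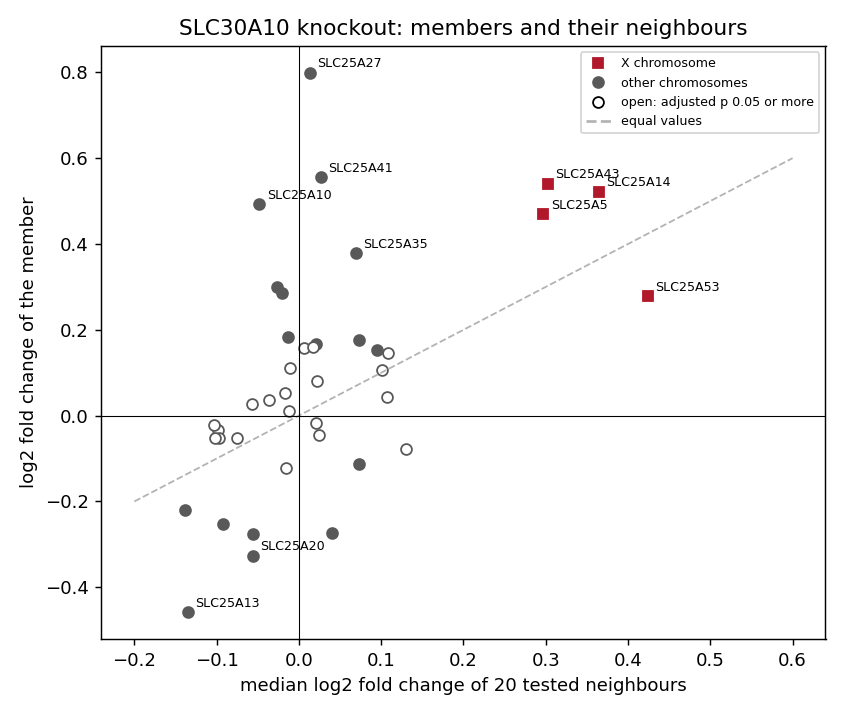
Log2 fold change of tested members in the SLC30A10 knockout (y axis) against the median of their 20 nearest tested neighbours (x axis); squares lie on the X chromosome, open points did not pass an adjusted p of 0.05, and the dashed line marks equal values. The 4 X members stand to the right, at medians of 0.30 to 0.42, and SLC25A27 and SLC25A10 stand high above neighbours near 0.

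The comparison of both control sets gives the size of differences without a deletion, and the share of members called was of the same order as in the SLC30A10 knockout. Of 42 tested members 17 (40.5%) differed between the control sets, against 39.3% of all tested genes, 10 of them with the higher level in SLC30A10 controls and 7 with the lower. SLC25A27 alone was 1.5-fold apart, against 5.64% of all genes. Among the others were SLC25A32 at 0.52 and SLC25A44 at 0.49, both higher in SLC30A10 controls, and SLC25A36, lower by 0.42. The calls of SLC25A12, SLC25A22 and SLC25A30 in this comparison were lost without a single library each (adjusted p 0.0769 and 0.0929 for SLC25A12 without the second control library 2 or 1, 0.0547 to 0.133 for SLC25A22, with log2 0.11 without the SLC30A10 control library 3, and 0.0870 to 0.121 for SLC25A30 without the SLC30A10 control library 3 or the second control library 1 or 2, edgeR). Of the 21 members that passed in the SLC30A10 knockout, 10 also differed between the control sets, which is 23.8% of the tested members, against 20% of all tested genes. In the SLC30A10 knockout 9 of the 21 (SLC25A4, SLC25A5, SLC25A10, SLC25A13, SLC25A14, SLC25A15, SLC25A16, SLC25A39 and SLC25A43) had all 4 knockout libraries outside the range of all 8 control libraries, which is 21.4% of the tested members, against 19.4% of all tested genes. Among the 10 that passed in the second knockout, 5 did (SLC25A4, SLC25A5, SLC25A13, SLC25A38 and SLC25A44), which is 11.9% of the tested members, against 7.29% of all genes.

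Across both knockouts, 6 members passed in each (SLC25A4, SLC25A5, SLC25A13, SLC25A16, SLC25A27 and SLC25A39), which is 14.3% of the tested members, where 7.82% of all tested genes did so. SLC25A4 and SLC25A13 fell in both and SLC25A27 rose in both, so 3 members (7.14%) moved the same way, where 4.02% of all genes did, while SLC25A5, SLC25A16 and SLC25A39 rose in the SLC30A10 knockout and fell in the second. A further 17 tested members (40.5%) passed in neither knockout. Of all tested genes, 41.4% passed in the SLC30A10 knockout, 13.7% in the second and 7.82% in both. With each library left out in turn, 15 of the 21 calls in the SLC30A10 knockout held in every fit, as did 3 of the 10 in the second knockout (SLC25A4, SLC25A5 and SLC25A13) and 10 of the 13 differences between the knockout effects. Calls near the threshold also depended on the method (adjusted p 0.0503 to 0.0852 where a call was lost). Scaling by library totals alone ended those of SLC25A16 in each knockout, of SLC25A36 in the SLC30A10 knockout, of SLC25A38 in the second knockout and of the differences for SLC25A28 and SLC25A38. Median-of-ratios factors ended the difference for SLC25A38. DESeq2 ended the calls of SLC25A36 and SLC25A41 in the SLC30A10 knockout and the differences for SLC25A28 and SLC25A38. In fits of only the libraries compared, SLC25A16 and SLC25A39 were not called in the second knockout. A mean count of at least 50 ended the call of SLC25A38 in the second knockout and its difference, and no filter on low counts ended the difference for SLC25A13 and the call of SLC25A12 between control sets. Summing numbered copies, an alternative chosen after seeing the data, ended the call of SLC25A38 in the second knockout and the differences for SLC25A28 and SLC25A38.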

How the data were processed

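The authors deposited whole-number counts per gene symbol for 16 libraries of poly-A RNA, 4 in each of 4 groups, and a table of normalized signal, which per the file values is each deposited count multiplied by a constant for its library (0.980 to 1.01). HISAT2, featureCounts and DESeq2 and the build GRCh38 are named in the submitters' processing notes without versions or roles; the annotation and the use of strand are not given in the sources used here. The gene deleted in the second knockout and 1 of the members are not reported here by name or in the plots; counts over the members include the latter.

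The count model was edgeR 4.0.16 under R 4.3.3 (minimum count 10, minimum total 15, trimmed mean of M-values scaling, quasi-likelihood test, all 16 libraries in 1 fit with a mean per group, no covariate, Benjamini-Hochberg adjustment over 15569 genes, threshold 0.05). CPM is the count relative to the scaled library size; the floor of 3 counts covers counting error only. Levels per kb used the union of exons in GENCODE v29; neighbours (91.1% of tested genes placed) and promoters came from RefSeq on GRCh38.p14. Tests compared each knockout with its own control set, the difference of these effects, and the control sets. On counts simulated for 15569 genes, 89% of 1.5-fold and 100% of 2-fold changes among 200 changed genes were called. The changed genes were drawn only from those above a minimum mean count, and all genes had the same simulated spread. These shares therefore do not extend to members with few counts or a wider spread. Replicate pairs differed by more than sampling noise (chi-square per degree of freedom 1.64 to 6.85).

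The alternatives tried were scaling by median of ratios or by totals only, DESeq2 1.42.0, other filters and thresholds, a replicate block, fits of only the libraries compared, pooled control sets, leaving out each library and, chosen after seeing the data, numbered copies summed. The members, classes and lists were chosen with earlier results of these data known. Any member could be named. The rule asked for full statistics for members past the threshold with a fold of at least 1.5 in a knockout, and they are also given for other called members. From the list of related genes, up to 5 per knockout with the smallest adjusted p were named.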

Additional observations from a re-analysis of the deposited data

Results flagged for a closer look

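In the second knockout, library 3 lay far from the other 3 libraries for SLC25A39 (245.8 CPM, others 220.4 to 224), SLC25A1 (238 CPM, others 211 to 216) and SLC25A20 (22.1 CPM, others 19.99 to 20.3). In the SLC30A10 control set, library 3 lay below the others for SLC25A30 (21.3 CPM, others 23.8 to 24.1). These were 4 of 64 groups of values examined, where chance at 1 in 20 gives 3.2.

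The effects of the knockouts differed by the test of the difference itself (edgeR quasi-likelihood test, adjusted over all genes) for 13 members. The log2 effect was more positive in the SLC30A10 knockout by 0.62 for SLC25A5, 0.60 for SLC25A10, 0.51 for SLC25A14, 0.49 for SLC25A43, 0.41 for SLC25A16, 0.30 for SLC25A39, 0.29 for SLC25A30, 0.27 for SLC25A1, 0.25 for SLC25A28 and 0.25 for SLC25A38. It was more negative for SLC25A32 (-0.33), SLC25A20 (-0.32) and SLC25A13 (-0.18).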

How the results depend on the processing

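The counts of members called were 21, 10, 13 and 17 in the SLC30A10 knockout, the second knockout, the difference of their effects and the control sets. Leaving out 1 library at a time gave 17 to 20, 4 to 9, 10 to 14 and 14 to 18. At an adjusted p under 0.01 the second knockout kept 3. A fold of at least 1.5 left 1, 1, 2 and 1, against 10.4%, 4.27%, 11.4% and 5.64% of all tested genes. For the other alternatives the share of all tested genes is not given here, so their counts are not read against it. Both control sets pooled gave 25 for the SLC30A10 knockout and 19 for the second; there SLC25A36 turned to a log2 difference of -0.0566 in the former (adjusted p = 0.407, edgeR), and the target SLC30A10 to a log2 ratio of 0.20 (exact permutation test, p = 0.594). The replicate block gave 21, 10, 13 and 17, the same counts, though same-numbered libraries share only a number (correlations of deviations -0.117 to 0.148). Size factors, library totals, DESeq2 (19, 10, 11 and 17), filters on low counts and summed numbered copies (22, 9, 12 and 18) stayed within 1.5 times. At 1.5 to 3 CPM, as for SLC25A41 and SLC25A48, few counts limit precision.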

Other observations

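Genes outside the SLC25A symbols that share the carrier fold, import carriers or transport solutes beside them were described from 4 lists of 32 genes chosen by function, of which 30 were tested. In the SLC30A10 knockout 9 of 30 passed (5 higher and 4 lower, against 41.4% of all tested genes), and in the second knockout 1 of 30 passed, against 13.7%. SLC8B1, the mitochondrial sodium/calcium exchanger, rose by 0.31 ± 0.06 in the SLC30A10 knockout (adjusted p = 0.000183, edgeR), from 33.1 ± 1.66 to 41 ± 1.63 CPM (SD, n = 4). Of 9 tested genes of carrier import, 4 passed there, with TOMM70, AGK and TIMM8A higher and TIMM13 lower (log2 -0.18, adjusted p = 0.0259, edgeR); TIMM8A and TIMM13 were named after their values were seen. TOMM70, the outer membrane receptor of carrier precursors, rose by 0.19 ± 0.04 (adjusted p = 0.000348, edgeR) and AGK, a subunit of the inner membrane carrier translocase, rose by 0.18 ± 0.04 (adjusted p = 0.00157, edgeR). VDAC1, the main outer membrane channel, fell by 0.17 ± 0.04 (adjusted p = 0.000618, edgeR), from 428 ± 10.8 to 381 ± 5.49 CPM.

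The carrier-fold genes UCP1, UCP2, UCP3, MTCH1 and MTCH2 gave 1 call in each knockout. UCP1, the uncoupling protein of brown fat, stood at 2.81 ± 0.376 CPM (SD, n = 4) in the second control set and 6.16 ± 0.625 in the second knockout, a rise of 1.13 ± 0.15 log2 (adjusted p = 1.45e-06, edgeR), more than any tested SLC25A member in either knockout. In the SLC30A10 knockout it was at 3.16 ± 0.788 CPM against 3.00 ± 0.240 (adjusted p = 0.742, edgeR), and these effects differed by -1.06 ± 0.22 (adjusted p = 0.000482, edgeR). UCP2 rose by 0.24 ± 0.06 in the SLC30A10 knockout (adjusted p = 0.00399, edgeR), with 25.2 ± 2.22 CPM in its control set and 29.8 ± 1.70 in the knockout.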
